A study of Mus musculus with 25 samples.

Results

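Atf5 and 6 genes of mitochondrial protein quality control, Hspd1, Hspe1, Hspa9, Lonp1, Clpp and Dnaja3, were followed in the mouse duodenum after ethanol feeding. These 7 genes, of 17007 in the deposited count table, were chosen from earlier results of the same libraries. Atf5 was the 1 gene past the threshold with edgeR when the stronger ethanol regimen was compared with control diet in wild type. The other 6 are established mitochondrial chaperones and proteases. The authors' deposited DESeq2 results for that comparison had 988 genes higher and 964 lower at an adjusted p under 0.05, or 11.5%. Among the higher genes were Atf5, Hspd1, Hspe1, Clpp and Dnaja3. Values from that comparison, and from those that share libraries with it, are therefore given below as a description without p-values. All 7 genes were counted in every library, and all 7 passed the filter on low counts in every comparison.

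Polyadenylated RNA was sequenced from 25 duodenum libraries of male mice that entered the study at 8 weeks of age and were fed for 8 weeks. Mice carried either an Aldh2 knock-in allele (Aldh2KI, here KI) or were C57BL/6N, here wild type (WT). KI_Half (6 libraries) and WT_Half (7 libraries) received a diet with 2.5% ethanol and gavages of 2 g/kg ethanol 2 times per week, WT_Full (4 libraries) received 5% ethanol and gavages of 4 g/kg at the same frequency, and KI_Con (4 libraries) and WT_Con (4 libraries) received control diet. Tissue was collected 9 h after a last gavage stated as 5 g/kg; whether controls were gavaged, whether the milder regimen ended with the same last dose, and what change the knock-in encodes are points on which the labels are silent. No KI group received the stronger regimen. Libraries are taken as separate animals, which the labels do not state in so many words, so p-values measure the spread between libraries.

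Most mitochondrial proteins are made in the cytosol and imported as unfolded chains. Hspa9 (mortalin) pulls them into the matrix, the Hspd1 and Hspe1 chaperonin folds them, and the proteases Lonp1 and Clpp degrade those that stay misfolded or damaged. ATF5 is a bZIP transcription factor that has been described in mammalian cells as a regulator of such genes when mitochondrial protein folding is disturbed, and Atf5 itself is a target of the integrated stress response through eIF2alpha and ATF4. Ethanol is oxidised to acetaldehyde, which the mitochondrial enzyme encoded by Aldh2 clears.

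The genes lie at these places in GRCm38 by GENCODE M21; the place of Hspa9 is given with its values. Atf5 (ENSMUSG00000038539) is at chr7:44812256-44816658 on the minus strand. Hspd1 (ENSMUSG00000025980), at chr1:55077835-55088243 on the minus strand, and Hspe1 (ENSMUSG00000073676), at chr1:55088132-55091307 on the plus strand, are neighbours that point away from each other and overlap at their first exons. Lonp1 (ENSMUSG00000041168) is at chr17:56614297-56626887 on the minus strand, Clpp (ENSMUSG00000002660) at chr17:56990305-56996188 on the plus strand and Dnaja3 (ENSMUSG00000004069) at chr16:4639989-4707695 on the plus strand. Exons of Atf5 overlap those of Nup62 and Il4i1 on the opposite strand, and exons of Dnaja3 overlap those of Coro7 and Vasn. The labels do not give the strand setting of the counting, so reads in these overlaps could not be assigned to one gene. Hspd1 and Hspe1 have 5 and 6 processed-copy names in the annotation, of which 1 and 0 are in the count table, so some of their reads may have been lost or shared in counting.

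The promoter windows of the pair that shares a start region and of the transcription factor are shown, since Hspd1 and Hspe1 are read from opposite strands of the same DNA and Atf5 had the largest fold change of the 7 genes in KI_Half vs KI_Con. RefSeq windows on GRCm38.p6 run from 250 bases before to 50 after a start, and 6 of the 7 genes had at least 1. Atf5 had 2 windows: the one printed holds a match of a motif searched, and the other, at chr7:44815609-44815908, holds none. Hspd1 also had 2, and the one at chr1:55088194-55088493 holds none. Capitals mark heat shock element units, the GAA and TTC blocks to which heat shock factors bind. The Hspe1 window is chr1:55087898-55088197 on the plus strand and the Atf5 window is chr7:44816609-44816908 on the minus strand, each printed 5′ to 3′.
Hspe1: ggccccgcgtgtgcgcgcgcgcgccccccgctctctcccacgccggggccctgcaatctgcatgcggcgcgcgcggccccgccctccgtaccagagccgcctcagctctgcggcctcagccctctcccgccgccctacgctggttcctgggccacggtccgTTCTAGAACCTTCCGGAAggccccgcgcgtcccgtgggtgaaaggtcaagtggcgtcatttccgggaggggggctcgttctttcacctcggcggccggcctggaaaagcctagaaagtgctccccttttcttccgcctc
Atf5: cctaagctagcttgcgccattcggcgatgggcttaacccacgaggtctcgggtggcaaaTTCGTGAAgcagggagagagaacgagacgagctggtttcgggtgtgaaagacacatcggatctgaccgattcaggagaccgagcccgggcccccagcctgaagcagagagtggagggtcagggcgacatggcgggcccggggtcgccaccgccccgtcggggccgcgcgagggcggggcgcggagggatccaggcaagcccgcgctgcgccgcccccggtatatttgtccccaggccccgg
The Hspe1 window holds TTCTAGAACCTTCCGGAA, a run of 4 alternating TTC and GAA units spaced by 2 bases, from 89 to 72 bases before the start. A window of Hspd1 shares 285 bases with it on the opposite strand and reads the same element as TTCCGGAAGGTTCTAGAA. Such a run of 4 units, searched on both strands, occurred in 5 of 32851 windows, or 0.0152%. The shorter spellings GAANNTTC and TTCNNGAA, which the longer run contains, occurred in 15.1% of windows, among them the Atf5 window printed here (TTCGTGAA, 191 to 184 bases before the start) and that of Clpp (TTCCGGAA). The C/EBP-ATF response element TGATGNAAT (0.965% of windows) and the cyclic AMP response element TGACGTCA (1.79%) had no match in the windows of the 6 genes. A match describes letters only.

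The libraries held 24.6 to 44.8 M (mega) counts each. Expression is given as CPM, the counts of a gene per M counts in its library after trimmed mean scaling, and fold changes are log2 values ± standard error (SE) from edgeR quasi-likelihood fits. The duodenal markers Vil1, Fabp1, Alpi and 5 other enterocyte genes were detected, with a summed level of at least 14428 CPM. In wild type, 2 ethanol libraries stood out from the rest of their groups. Over 13170 genes, the library labelled WT_Half replicate 1 deviated along the difference between the other WT_Full and WT_Half libraries with r = 0.45, whereas the 6 other WT_Half libraries had r of -0.45 to -0.22. The library labelled WT_Full replicate 4 had r = -0.57, against -0.07, 0.15 and -0.13 in WT_Full replicates 1 to 3. The values of WT_Full replicates 1 and 3 were thus also slightly negative. For the other libraries, that difference included WT_Half replicate 1 and WT_Full replicate 4, and no distance to a group was measured. Whether the labels of these 2 libraries were exchanged or their tissue pieces differed in makeup was not tested, and the labels give no way to tell. Fold changes of the 7 genes, list counts and correlations without them are given after the values of each gene, and the other values below include them. Pancreatic acinar markers summed to at most 42.3 CPM in ethanol groups but to 7.54 to 4622 CPM in KI_Con and 3.86 to 2287 CPM in WT_Con. Brunner gland markers (3 genes) summed to 10608, 35.1, 53685 and 33250 CPM in WT_Con. Their medians were 43.7 CPM in WT_Full and 123 CPM in WT_Half, with highest sums of 7156 and 16945 CPM. In the knock-in they ran from 34.4 to 7174 CPM in KI_Half and from 54.3 to 10913 CPM in KI_Con. Whether these differences in tissue makeup account for values below was not tested.

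Atf5 was higher in every ethanol-fed library than in every control library of the study, and the highest levels were in the knock-in. Part of this separation comes from WT_Full vs WT_Con, for which Atf5 was chosen. The share of all genes separated over the 5 groups was not computed. By pairs of groups it was 4.22% in WT_Full vs WT_Con, 3.10% in WT_Half vs WT_Con and 13.5% in KI_Half vs KI_Con. KI_Half libraries had between 80.2 and 214 CPM, with a median of 128, against 26.7, 18.5, 23.8 and 25.8 CPM in KI_Con. WT_Full libraries had 88.1, 71.4, 84.0 and 78.4 CPM and WT_Half libraries 51.8 to 120 CPM, with a median of 86.4, against 26.9, 28.9, 29.5 and 30.8 CPM in WT_Con. Ordered by mean, KI_Half (143 ± 53.6, SD, n = 6) came before WT_Half (85.6 ± 21.1, n = 7), WT_Full (80.5 ± 7.21, n = 4), WT_Con (29.0 ± 1.63, n = 4) and KI_Con (23.7 ± 3.69, n = 4). The ranges of the first 3 overlapped one another, and each of the last 2 was separate from all others. The KI_Con libraries all lay below the WT_Con libraries, a log2 difference of -0.31 ± 0.13 that was not past the threshold.

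**Figure D1:**
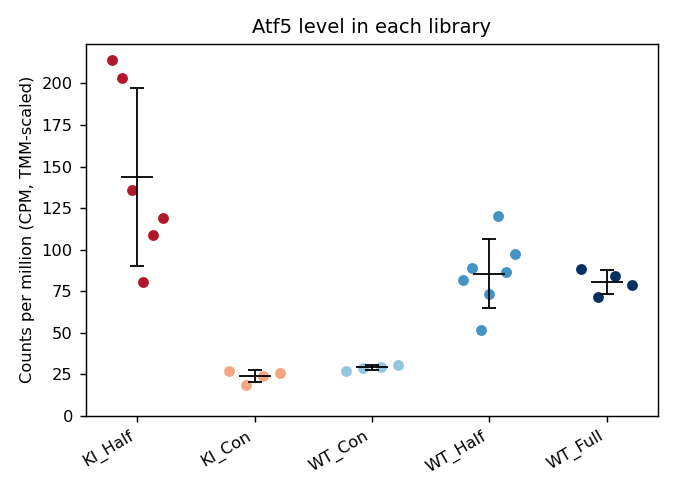
Atf5 level (CPM, linear axis from 0) in each of 25 libraries by group; points are libraries, and the bar with whiskers is the mean ± SD. All ethanol libraries, at 51.8 CPM or more, sit above all control libraries, at 30.8 CPM or less. Atf5 was chosen from WT_Full vs WT_Con.

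In the knock-in, Atf5 rose under the milder regimen by 2.61 ± 0.28 on the log2 scale, a 6.09-fold change (95% interval 4.17 to 8.89) with an edgeR adjusted p of 0.000286 in KI_Half vs KI_Con, which shares no library with the comparison that drew the set. This call held in all 17 settings tried, at 2.46 to 3.00 on the log2 scale. The genes were chosen with earlier results of these data known, so the p-values in the knock-in may not be free of that choice. In wild type the log2 fold change was 1.57 ± 0.19 in WT_Half vs WT_Con and 1.48 ± 0.13 in WT_Full vs WT_Con, and both use the same WT_Con libraries. Between the regimens WT_Full vs WT_Half gave -0.07 ± 0.18, a fold of 0.95 with a 95% interval of 0.742 to 1.22. The sign of that small value was not stable: it was 0.16 with the replicate number as a block and 0.03 without WT_Half replicate 5.

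Whether the knock-in responds more was asked in 2 ways. KI_Half vs WT_Half gave 0.74 ± 0.23 for Atf5, 1.68-fold (95% interval 1.23 to 2.28), with an edgeR adjusted p of 0.268. The KI_Half range of 80.2 to 214 CPM overlapped the WT_Half range of 51.8 to 120 CPM. In the authors' deposited table the same comparison had a log2 fold change of 0.747 with an adjusted p of 0.0253, and limma-voom with quality weights also passed it, at an adjusted p of 0.0482. Over all 19 alternatives the adjusted p ran from 0.0482 to 0.518, and the difference in Atf5 passed in 1 of them, the limma-voom fit. The DESeq2 fit run here did not call Atf5, unlike the authors' own results. Without WT_Half replicate 1 it was 0.73 ± 0.24 with an edgeR adjusted p of 0.134. The interaction of genotype with the milder regimen, which uses the WT_Con libraries again, was 1.04 ± 0.32 and is given without a test. No gene of 16907 passed in KI_Half vs WT_Half (0% called higher) with edgeR, where 2398 had an unadjusted p under 0.05, and DESeq2 and limma-voom called 172 and 884 genes.

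Of the chaperonin genes Hspd1 and Hspe1, whose products form the folding chamber and its lid, Hspd1 rose in KI_Half vs KI_Con and Hspe1 did not pass, and both had their highest mean in WT_Full. Hspd1 ran from 353 to 465 CPM in KI_Half (median 382), against 239, 237, 235 and 201 CPM in KI_Con. WT_Full libraries held 663, 481, 647 and 260 CPM and WT_Half libraries 302 to 814 CPM (median 368), against 203, 280, 247 and 217 CPM in WT_Con. The KI_Half libraries were all above KI_Con and the WT_Half libraries all above WT_Con, while WT_Full replicate 4, at 260 CPM, lay inside the WT_Con range. Hspd1 rose by 0.79 ± 0.10 on the log2 scale in KI_Half vs KI_Con (edgeR adjusted p = 0.00048), and the differences were 0.84 ± 0.25 in WT_Half vs WT_Con and 1.13 ± 0.29 in WT_Full vs WT_Con.

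Hspe1 was highest in WT_Full, at 309, 300, 260 and 102 CPM, against 117, 111, 89.6 and 97.6 CPM in WT_Con. WT_Half ran from 115 to 248 CPM (median 123), KI_Half from 104 to 193 CPM (median 154), and KI_Con had 142, 94.7, 124 and 101 CPM. KI_Half overlapped KI_Con, and Hspe1 was the 1 gene of the 7 that did not pass there, at 0.36 ± 0.19 with an edgeR adjusted p of 0.143. In WT_Full vs WT_Con the difference was 1.24 ± 0.32, and in WT_Full vs WT_Half it was 0.78 ± 0.28, the largest of the 7 genes between the 2 regimens. Although both genes share a start region, the ratio of Hspe1 to Hspd1 counts varied from 0.284 to 0.528 in KI_Half and from 0.400 to 0.593 in KI_Con. It was 0.394 to 0.625 in WT_Full, 0.305 to 0.390 in WT_Half and 0.362 to 0.574 in WT_Con.

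Hspa9 (ENSMUSG00000024359, chr18:34937414-34954357 on the minus strand), the matrix Hsp70 that drives import and folding, had the smallest fold change of the 7 genes in KI_Half vs KI_Con. It ran from 455 to 533 CPM in KI_Half (median 490), against 423, 436, 419 and 367 CPM in KI_Con, with every KI_Half library above every KI_Con library. The rise was 0.27 ± 0.08 on the log2 scale, 1.20-fold, with an edgeR adjusted p of 0.0274, and it stayed past the threshold in 10 of 17 settings. WT_Full had 525, 602, 579 and 387 CPM and WT_Half 383 to 655 CPM (median 454), against 380, 451, 359 and 399 CPM in WT_Con, and both ranges overlapped that of WT_Con. Per kilobase of exon, which allows levels of different genes to be compared, KI_Half had 148 CPM per kilobase for Hspd1, 114 for Hspa9, 100 for Hspe1 and 72.0 for Atf5, against 86.3, 95.4, 78.3 and 11.9 in KI_Con.

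Dnaja3 (Tid1), an Hsp40 partner of Hspa9, ran from 54.9 to 93.6 CPM in KI_Half (median 80.4), against 52.5, 53.1, 54.1 and 46.0 CPM in KI_Con. WT_Full had 90.9, 77.3, 92.2 and 57.5 CPM and WT_Half 60.9 to 104 CPM (median 69.6), against 46.0, 58.8, 59.1 and 51.8 CPM in WT_Con. KI_Half did not overlap KI_Con, WT_Half did not overlap WT_Con, and WT_Full replicate 4 fell within the WT_Con range. Dnaja3 rose by 0.60 ± 0.13 on the log2 scale in KI_Half vs KI_Con (edgeR adjusted p = 0.00547), and the differences were 0.49 ± 0.14 in WT_Half vs WT_Con and 0.57 ± 0.18 in WT_Full vs WT_Con.

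The matrix protease genes Lonp1 and Clpp also rose in KI_Half vs KI_Con, by less than Atf5 and Hspd1. Lonp1, which degrades oxidised and misfolded matrix proteins, ran from 126 to 167 CPM in KI_Half (median 143), against 107, 94.6, 109 and 96.2 CPM in KI_Con, without overlap. It rose by 0.53 ± 0.11 on the log2 scale (edgeR adjusted p = 0.00331) and passed in all 17 settings. In wild type WT_Full had 158, 96.8, 164 and 102 CPM and WT_Half 107 to 194 CPM (median 120), against 93.3, 108, 107 and 106 CPM in WT_Con, and both overlapped it, with 0.34 ± 0.20 in WT_Full vs WT_Con and 0.35 ± 0.16 in WT_Half vs WT_Con.

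Clpp, the proteolytic subunit of the ClpXP protease, ran from 35.6 to 57.4 CPM in KI_Half (median 51.4), against 41.4, 36.0, 35.9 and 34.2 CPM in KI_Con. KI_Half replicate 5, the lowest, lay inside the KI_Con range. The rise was 0.42 ± 0.13 on the log2 scale (edgeR adjusted p = 0.023). WT_Full had 66.2, 46.8, 56.9 and 35.2 CPM and WT_Half 42.0 to 68.8 CPM (median 43.7), against 30.6, 31.2, 34.7 and 35.4 CPM in WT_Con, and every WT_Half library was above WT_Con. The log2 differences were 0.65 ± 0.20 in WT_Full vs WT_Con and 0.59 ± 0.15 in WT_Half vs WT_Con. Clpx, which encodes the unfoldase that feeds this protease, did not pass in KI_Half vs KI_Con, at -0.23 ± 0.12 (edgeR adjusted p = 0.144).

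**Figure D2:**
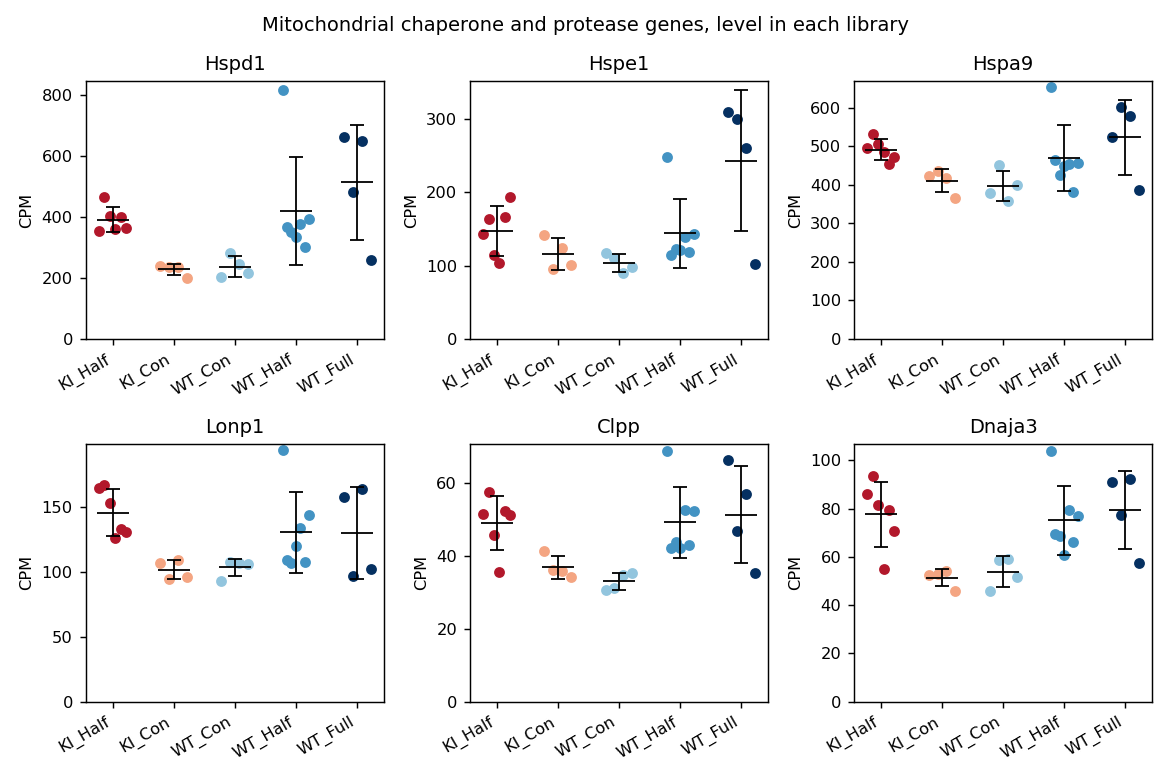
Levels of the 6 chaperone and protease genes (CPM, linear axes from 0) in each of 25 libraries by group; points are libraries, and bars with whiskers are the mean ± SD. One WT_Half library (replicate 1) is the highest of its group in every panel, with 814 CPM of Hspd1, and 1 WT_Full library (replicate 4) is the lowest of its group in 5 panels, with 260 CPM of Hspd1.

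Counted together, 6 of the 7 genes were called higher in KI_Half vs KI_Con, where 20.0% of 16944 genes were called higher, and in 5 of the 7 every KI_Half library was above every KI_Con library, against 13.5% of all genes. Their median log2 fold change was 0.53, against 0.00 over all genes. In WT_Half vs WT_Con only Atf5 was called, beside 0.894% of all genes, and 4 genes (Atf5, Hspd1, Clpp and Dnaja3) had no overlap, beside 3.10% of all genes. In WT_Full vs WT_Con only Atf5 was called and only Atf5 had no overlap, where 0.00592% and 4.22% of all genes did so; that comparison drew the set, and nothing is read from its counts. In WT_Full vs WT_Half none was called (0% of all genes with edgeR, 780 genes at an unadjusted p under 0.05).

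Genotype on its own was not followed by a called difference in any of the 7. In KI_Con vs WT_Con 0% of genes were called with edgeR (1664 at an unadjusted p under 0.05), and the 6 chaperone and protease genes differed by -0.08 to 0.15 on the log2 scale. In KI_Half vs WT_Half the same 6 genes differed by -0.09 to 0.16, with SE of 0.11 to 0.19, and by 0.09 to 0.27 without WT_Half replicate 1, where none passed either. For Hspd1 the 95% interval of the fold was 0.722 to 1.21, and for Lonp1 it was 0.931 to 1.34. In the interaction 0% of genes were called (2162 at an unadjusted p under 0.05), and these 6 genes had values of -0.16 to 0.19. At the milder regimen the knock-in and wild type had overlapping chaperone and protease levels, while the mean Atf5 level was higher in the knock-in without passing the edgeR threshold.

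**Figure D3:**
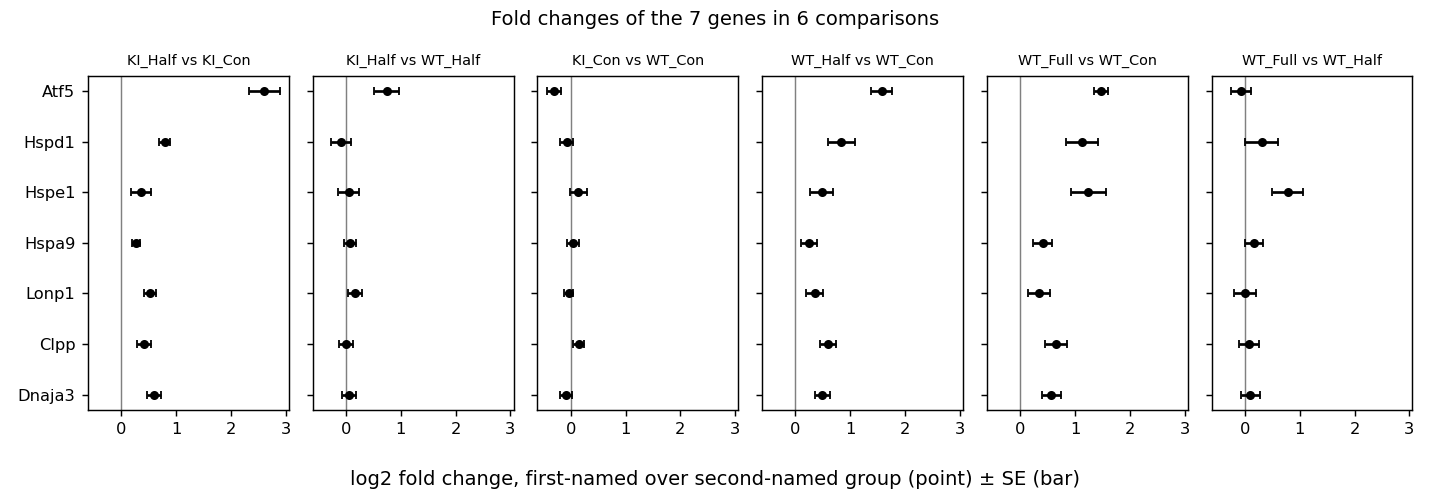
Log2 fold change (point) ± SE (bar) of the 7 genes in 6 comparisons, first-named over second-named group. Atf5 has the largest value in KI_Half vs KI_Con (2.61) and in both wild-type comparisons with control diet (1.57 and 1.48), and Hspe1 (0.78) has the largest between the 2 wild-type regimens.

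In 2 wild-type libraries the level of the 6 genes and that of Atf5 went apart. The mean log2 CPM of the 6 genes was 7.76, 7.47 and 7.71 in WT_Full replicates 1 to 3 but 6.83 in replicate 4, against 6.68 to 6.89 in WT_Con. Atf5 in that same replicate 4 was at 78.4 CPM, within the range of the other WT_Full libraries. In WT_Half the library labelled replicate 1 had a mean of 7.90, against 6.99 to 7.30 in the 6 others, while its Atf5 level of 81.9 CPM was inside their range. Enterocyte markers went the other way from the 6 genes in these 2 libraries. They summed to 19475, 24586 and 14655 CPM in WT_Full replicates 1 to 3 and 41824 CPM in replicate 4. WT_Half replicate 1 had 16720 CPM, against 27564 to 33786 CPM in the 6 others. WT_Con replicates 3 and 4 had enterocyte sums of 16856 and 19449 CPM with 6-gene means of 6.78 and 6.76. Those control libraries differed in makeup, with Brunner gland marker sums of 53685 and 33250 CPM. These sums were 125 CPM in WT_Half replicate 1 and 15.3 CPM in WT_Full replicate 4. Whether the makeup of the tissue piece accounts for these levels was not tested.

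Without WT_Full replicate 4, 6 of the 7 genes (all except Lonp1) passed in WT_Full vs WT_Con, where the share of all genes called higher was then 7.15%, against 0.00592% with that library. The log2 values were 1.5 ± 0.12 for Atf5, 1.36 ± 0.17 for Hspd1, 1.5 ± 0.14 for Hspe1, 0.54 ± 0.13 for Hspa9, 0.45 ± 0.19 for Lonp1, 0.80 ± 0.15 for Clpp and 0.71 ± 0.13 for Dnaja3. The count of members and the count of all genes thus grew together, and the comparison is the one that drew the set. Without WT_Half replicate 1, Atf5 (1.57 ± 0.20), Hspd1 (0.58 ± 0.11) and Clpp (0.48 ± 0.10) passed in WT_Half vs WT_Con, beside 1.34% of all genes called higher, and Hspe1 (0.28 ± 0.10), Hspa9 (0.14 ± 0.10), Lonp1 (0.22 ± 0.11) and Dnaja3 (0.38 ± 0.11) did not. With neither library, a choice made after the data were seen, 3.29% of all genes were called higher and 3 of the 7 were higher in WT_Full vs WT_Half: Hspe1 by 1.22 ± 0.10, Hspd1 by 0.77 ± 0.13 and Hspa9 by 0.39 ± 0.10 on the log2 scale, while Atf5 was at -0.07 ± 0.21. These calls rest on libraries left out for their values and are given as a description.

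**Figure D4:**
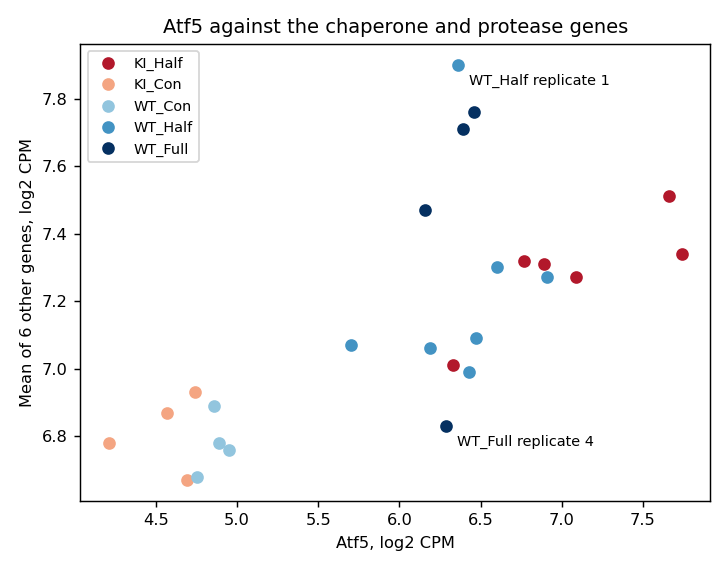
Mean log2 CPM of the 6 chaperone and protease genes (vertical) against log2 CPM of Atf5 (horizontal), 1 point per library, coloured by group. KI_Half libraries reach farthest right, at 7.01 to 7.51 on the vertical axis, WT_Full replicates 1 to 3 and WT_Half replicate 1 lie highest at 7.47 to 7.90, and WT_Full replicate 4 lies at the control level of the 6 genes with a raised Atf5.

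Across the 25 libraries, log2 CPM of Atf5 correlated with that of Dnaja3 (r = 0.79), Lonp1 (0.73), Clpp (0.72), Hspd1 (0.66), Hspa9 (0.54) and Hspe1 (0.43). After the group means were subtracted these were 0.50 for Dnaja3, 0.49 for Lonp1, 0.46 for Clpp, 0.12 for Hspd1, 0.09 for Hspa9 and 0.19 for Hspe1. Among 13168 genes ranked by r with Atf5 over the libraries, these 6 ran from place 186 (Dnaja3) to place 3302 (Hspe1). Ranked over deviations from group means, they ran from place 122 (Dnaja3) to place 4903 (Hspa9). Many genes outside the set thus correlated with Atf5 more closely than any of the 6. The 6 other genes correlated with each other at 0.56 to 0.93 over the libraries. Without WT_Full replicate 4 and WT_Half replicate 1, over 23 libraries, r with Atf5 was 0.85 for Dnaja3, 0.81 for Lonp1, 0.79 for Clpp, 0.74 for Hspd1, 0.62 for Hspa9 and 0.45 for Hspe1, and the 6 others correlated with each other at 0.47 to 0.91. Over deviations from group means these were then 0.68, 0.64, 0.65, 0.27, 0.17 and 0.33 in the same order. The libraries share a tissue and a diet by group, so these are descriptions. The 8 genes most like Atf5 among 13168 genes were Psat1 (0.96), Eif4ebp1 (0.94), Psph (0.93), Asns (0.93), Gars (0.93), Yars (0.93), Sars (0.93) and Phgdh (0.92). Psat1, Psph and Phgdh encode the serine synthesis enzymes, Asns makes asparagine, Gars, Yars and Sars charge tRNAs with their amino acids, and Eif4ebp1 encodes a repressor of cap-dependent translation. Over deviations from group means the 5 highest were Aars (0.79), Phf10 (0.78), Pck2 (0.76), Ssu72 (0.76) and Psat1 (0.73).

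Genes around Atf5 in the same pathway were counted from lists in KI_Half vs KI_Con, where 3388 genes of 16944 were called higher and 3032 lower. Of 17 ATF4 target genes 12 rose and none fell, with a median of 2.21 on the log2 scale. Psat1 rose to 53.4 ± 15.4 CPM in KI_Half, against 6.04 ± 1.03 CPM in KI_Con, by 3.15 ± 0.24. Asns rose to 119 ± 30.7 CPM in KI_Half, against 18.9 ± 2.28 CPM in KI_Con, by 2.66 ± 0.20, and Phgdh by 2.53 ± 0.19, each with an edgeR adjusted p of 8.73e-05. Trib3, a pseudokinase gene of the same list, did not pass, at 0.23 ± 0.27.

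Of 8 genes listed near Atf5, which were bZIP factors and Nupr1, 4 rose, beside 20.0% of all genes tested. Atf4 rose to 387 ± 81.7 CPM in KI_Half against 210 ± 18 CPM in KI_Con (0.89 ± 0.16, edgeR adjusted p = 0.00181). The others were Cebpa (0.43 ± 0.08), Cebpb (0.86 ± 0.25) and Cebpd (2.62 ± 0.60). Ddit3 (CHOP), a factor of the same stress response, did not pass, at 15.7 ± 4.08 CPM in KI_Half and 20.3 ± 2.84 CPM in KI_Con, and neither did Atf3, at 22.4 ± 9.00 CPM in KI_Half and 20.4 ± 4.61 CPM in KI_Con. Of 9 genes for eIF2alpha kinases, phosphatases, DELE1 and eIF2B subunits, Eif2b1 (0.93 ± 0.11) and Eif2b5 (0.32 ± 0.08) rose, and Eif2ak1, the kinase HRI, fell to 46.6 ± 7.80 CPM in KI_Half against 77.3 ± 7.64 CPM in KI_Con.

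Of 21 genes of mitochondrial protein import 12 rose and 1 fell, with a median of 0.48. For this and the next lists, 20.0% of 16944 genes were called higher and 3032 genes lower over all genes. Tomm5 of the outer membrane pore reached 97.3 ± 7.78 CPM in KI_Half, against 51.9 ± 8.34 CPM in KI_Con (0.92 ± 0.11), Timm9 of the intermembrane space rose by 0.85 ± 0.11 and Timm50 of the inner membrane receptor by 0.65 ± 0.09, while Timm17b fell by 0.34 on the log2 scale. Other mitochondrial chaperones and co-chaperones moved less uniformly. Grpel1, the nucleotide exchange factor of Hspa9, rose by 0.55 ± 0.10, Clpb rose by 0.35 ± 0.09 and Dnajc30 fell by 0.33 on the log2 scale. The other 5 of 8 were not past the threshold. Of 15 other proteases and peptidases Xpnpep3, Pmpca and Pitrm1 rose, Spg7 fell, to 73.1 ± 10.3 CPM in KI_Half against 105 ± 2.60 CPM in KI_Con, and 11 did not pass. Phb2 and Stoml2 rose among 3 inner membrane scaffold genes.

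Of 9 mitophagy genes 4 fell and 1, Phb2, rose, with a median of -0.46. Beside the counts of this and the next lists, 20.0% of 16944 genes were called higher and 3032 genes lower over all genes. Pink1, the kinase that marks damaged mitochondria, fell to 92.9 ± 17.7 CPM in KI_Half against 199 ± 2.66 CPM in KI_Con (-1.09 ± 0.13, edgeR adjusted p = 0.000416), and Optn, Bnip3l and Bnip3 also fell. Of 10 genes of mitochondrial DNA maintenance and content Ppargc1b, Ssbp1 and Tfam rose and Ppargc1a fell. Of 7 antioxidant enzyme genes Prdx3 rose and Txnrd2 fell. None of 13 mitochondrially encoded genes passed, and their median was 0.09. Of 11 listed genes, which were cytosolic heat shock factor targets and Hsf1, the gene of such a factor, Hsp90ab1, Hsf1, Hspb1 and Hsp90aa1 rose. Dnaja1 fell, and the median of this list was -0.02.

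In wild type 3 ATF4 target genes passed in WT_Half vs WT_Con, Psat1 (2.40 ± 0.38), Phgdh (1.67 ± 0.36) and Shmt2 (1.27 ± 0.28), and no gene of the other lists did. Of all 16993 genes tested there, 0.894% were called higher and 97 genes lower. In WT_Full vs WT_Con no listed gene passed, where only 1 gene of 16882, Atf5, was called. The import genes there had a median of 0.58 with 20 of 21 above 0, and the ATF4 targets 0.19 with 11 of 17 above 0. Of all 16882 genes, 8432 were above 0. That comparison drew the set, so these values are a description. In KI_Half vs WT_Half no listed gene passed either, nor did any other of 16907 genes. The ATF4 targets there had a median of 0.61 with 15 of 17 above 0, beside 7931 of all 16907 genes. Without WT_Full replicate 4, 13 of 21 import genes (median 0.70) and 5 of 17 ATF4 targets (median 0.34) passed as higher in WT_Full vs WT_Con, beside 7.15% of all genes. Over all lists, 29 of 130 genes then passed as higher and 5 as lower, beside 858 of 16947 genes called lower. Without WT_Half replicate 1, 6 of 21 import genes (median 0.32) and 3 of 17 ATF4 targets (median 0.65) passed as higher in WT_Half vs WT_Con, beside 1.34% of all genes. Over all lists, 10 of 130 genes passed there as higher and 0 as lower. In KI_Half vs WT_Half without that library, none of the 130 listed genes passed.

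**Figure D5:**
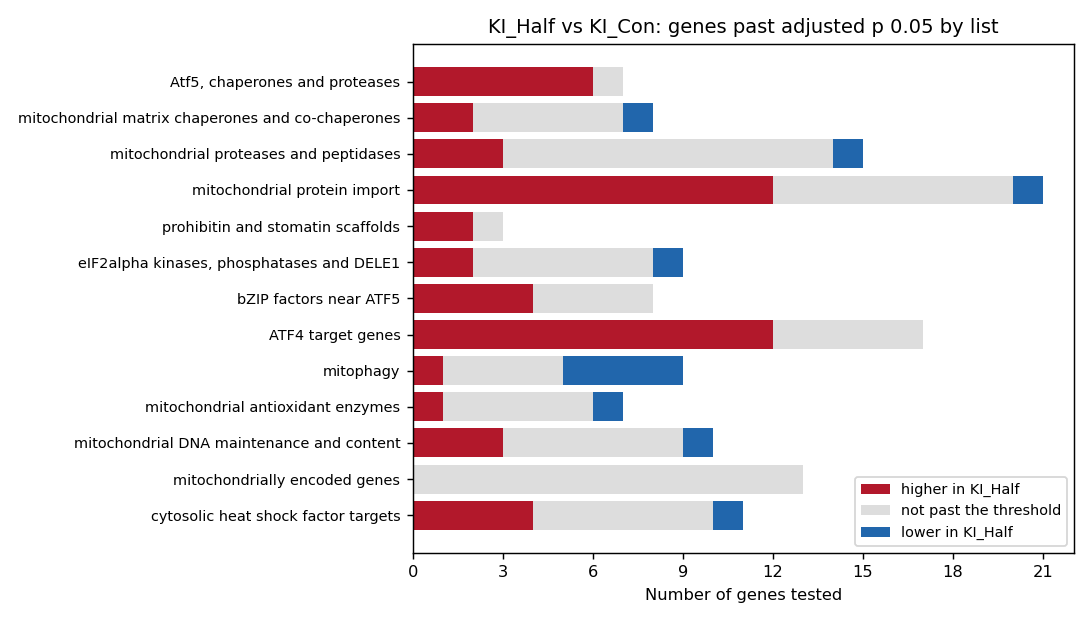
Number of genes of each list called higher (left, red), not past the threshold (grey) and called lower (right, blue) in KI_Half vs KI_Con. Import genes (12 of 21 higher) and ATF4 targets (12 of 17 higher) hold the longest red bars, and mitophagy has the most genes lower (4 of 9). Over all 16944 genes tested, 20.0% were called higher and 3032 genes lower.

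Cell type markers also differed between KI_Half and KI_Con, and their part in the values above was not tested. The sum of 4 T cell markers was 9.11 to 39.4 CPM in KI_Half and 49.3 to 75.4 CPM in KI_Con, and that of 2 B and plasma cell markers 140 to 723 CPM in KI_Half and 854 to 1249 CPM in KI_Con. Goblet cell markers (4 genes) summed to 4056 to 5296 CPM in KI_Half and 5993 to 9020 CPM in KI_Con. Myeloid markers (4 genes) summed to 28.6 to 80.7 CPM in KI_Half and 89 to 179 CPM in KI_Con, and fibroblast markers (4 genes) to 119 to 222 CPM in KI_Half and 272 to 394 CPM in KI_Con. These 5 sums were lower in every KI_Half library than in every KI_Con library. The groups overlapped for enterocyte markers, at 14428 to 31141 CPM in KI_Half and 27968 to 40754 CPM in KI_Con, and for enteroendocrine markers, which leaned the other way at 321 to 444 CPM in KI_Half and 269 to 329 CPM in KI_Con. No marker of these lists was at 0 in a whole group. In bulk tissue, fewer cells of a type and less RNA per cell cannot be told apart. Without the 2 KI_Con libraries with more than 10 CPM of Ctrb1, an acinar gene, which leaves 2 of 4 by a choice made after the data were seen, Atf5, Hspd1 and Lonp1 still passed in KI_Half vs KI_Con, beside 8.56% of all genes called higher, and Hspa9, Clpp and Dnaja3 did not, although their log2 values were 0.33, 0.49 and 0.64.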

How the data were processed

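Per the submitters' processing notes, the authors used FastQC, Trimmomatic, HISAT2, SAMtools, featureCounts and DESeq2 with GRCm38; no version or strand setting is given there. The deposited values used are whole read counts for each gene without normalisation. Per the file headers, log2 fold changes and adjusted p-values in the same tables are the authors' own DESeq2 results. The deposited signal column, a mean of normalised counts, was not used. The 2 tables hold the same counts, and 213 repeated lines with equal counts were merged to 17007 genes.

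Counts were fitted in R 4.3.3 with edgeR 4.0.16 (quasi-likelihood F test, trimmed mean of M values, default filter by group, two-sided, Benjamini-Hochberg over all genes tested, threshold 0.05), each comparison on its own groups and the interaction on 4 groups. CPM were scaled over 25 libraries; log2 CPM used a prior count of 2. Alternatives were DESeq2 1.42.0, limma 3.58.1 voom, other size factors, no filter, 1 fit of all libraries, the replicate number as a block, and each library left out. Fits without control libraries above 10 CPM of Ctrb1 were added after seeing the data. So were fits and correlations without both WT_Full replicate 4 and WT_Half replicate 1, the 2 libraries that stood out from their groups.

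The members and lists were chosen with earlier results of these data known. The rule for named genes took the 7 genes, up to 3 genes per list and direction with the smallest p, the 8 genes most like Atf5 and the 5 most like it after group means were subtracted; Clpx, Trib3, Ddit3, Atf3, Cebpb, Hsp90aa1, Bnip3 and further genes beyond 3 per direction were named after their values were seen. Replicate numbers were taken to pair libraries only where r of their deviations was over 0.1 in every pair; no comparison met this, and the lowest r was 0.035 for KI_Half vs KI_Con and 0.005 between the control-diet groups. The steps were tested on simulated counts. Intervals cover the spread between libraries.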

Additional observations from a re-analysis of the deposited data

Results flagged for a closer look

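Of 35 sets of library values (7 genes in 5 groups), 8 had 1 library set apart from the rest by its gap relative to the range of the group, a criterion that chance meets in about 1 in 20 groups. In 6 of the 8 it was the highest WT_Half library, replicate 1, with 814 CPM of Hspd1, 248 CPM of Hspe1, 655 CPM of Hspa9, 194 CPM of Lonp1, 68.8 CPM of Clpp and 104 CPM of Dnaja3. These values come from 1 library and are not independent of each other. The other 2 were the lowest libraries of control groups, KI_Con replicate 4 for Hspd1, at 201 CPM, and WT_Con replicate 1 for Lonp1, at 93.3 CPM.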

How the results depend on the processing

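The number of the 7 genes called moved most in wild type, and the share of all genes called higher moved with it. In WT_Full vs WT_Con, where edgeR called 1 (0.00592% of all genes), DESeq2 called 3 (2.98%), limma-voom 5 (4.8%), 1 fit of all 25 libraries 5 (4.02%), the fit without control libraries rich in Ctrb1 0 (0%), and leaving out 1 library gave 0 to 6 (0% to 7.15%): Atf5 was no longer called when WT_Full replicate 1 or 3, or any of WT_Con replicates 1, 3 and 4, was dropped, at 1.41 to 1.54 on the log2 scale over all replicates left out in turn. In WT_Half vs WT_Con, again 1 with edgeR (0.894%), DESeq2 and limma-voom called 4 each (4.13% and 3.50%), the fit of all libraries 3 (2.06%), the fit without those controls 0 (0%), and leaving out 1 library gave 1 to 3 (0.0823% to 1.42%); without those controls 1 WT_Con library remained, assumed to vary like the ethanol group. Fitted with a replicate block, both comparisons called 0 (0%) and KI_Half vs KI_Con called 5 of its 6 (18.6%), although the numbers were not shown to pair the libraries. KI_Half vs KI_Con called 3 without the Ctrb1-rich controls (8.56%), 4 in the fit of all libraries (16.1%) and 4 to 6 with 1 library left out (15.6% to 23.1%), losing Hspa9 without KI_Con replicate 1, 3 or 4 or KI_Half replicate 2, and Clpp without KI_Con replicate 2, 3 or 4. WT_Full vs WT_Half called 3 with neither WT_Full replicate 4 nor WT_Half replicate 1 (3.29%). Limma-voom called 1 (Atf5) in KI_Half vs WT_Half (2.24%) and 1 (Atf5) in the interaction (2.45%). By Spearman's rho, 5 of the 8 genes most like Atf5 kept their place among the first 8. The cause of these shifts was not tested.

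Small log2 values changed sign. In KI_Half vs WT_Half Hspd1 and Clpp were each 0.11 by limma-voom, and with 1 library left out Hspd1 ran from -0.15 to 0.14, Hspe1 from -0.05 to 0.22, Clpp from -0.05 to 0.09 and Dnaja3 from -0.01 to 0.14. In the interaction limma-voom gave 0.13 for Hspd1, 0.03 for Hspe1 and 0.01 for Clpp, the fit without Ctrb1-rich controls 0.26 for Hspd1 and 0.02 for Hspe1, and with 1 library left out Hspd1 ran from -0.13 to 0.21, Hspe1 from -0.20 to 0.08 and Hspa9 from -0.04 to 0.12. In WT_Full vs WT_Half Atf5 was 0.16 with the replicate block and ran from -0.17 to 0.03 with 1 library left out, Lonp1 from -0.13 to 0.12 and Clpp from -0.09 to 0.22. Lonp1 was there -0.004 by DESeq2 and -0.01 with the block and in the fit of all libraries. In KI_Con vs WT_Con Hspd1 was 0.02 without WT_Con replicate 2, Hspa9 -0.003 without WT_Con replicate 3 and -0.19 without Ctrb1-rich controls, and Lonp1 0.003 without KI_Con replicate 2. Each of the 7 genes had at least 562 counts in every library.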
